A study of Homo sapiens with 6 samples.

Results

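Epithelial cells are held to each other by adherens junctions, desmosomes and tight junctions, and the 36 genes described here encode the parts of these junctions together with polarity and epithelial identity factors. They were taken as a list of symbols, and all 36 were found among the 58051 gene rows of the count table. By the role of their proteins, 9 were placed with adherens junctions, 9 with desmosomes and 13 with tight junctions, and 5 are a polarity protein, EPCAM and epithelial regulators. A filter on low counts left 34 of them among 14773 tested genes.

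The cells were OE33 parental cells, of an established line from a human oesophageal adenocarcinoma. The 3 untreated cultures were compared with 3 cultures given 15 µM APX2009 for 24 h, a small-molecule inhibitor of the redox function of APE1, which is also a DNA repair enzyme. No vehicle is named for the untreated cultures, and all cultures are of 1 cell line. Polyadenylated RNA was sequenced, and the series design describes the replicates as biologically independent.

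In an adherens junction, cadherins of neighbouring cells bind each other and are tied to actin through catenins, with nectins and afadin as a parallel system. In a desmosome, desmosomal cadherins are tied to keratin filaments through plakoglobin, plakophilins and plakins. Tight junctions seal the space between cells with claudins and other membrane proteins, which zonula occludens proteins and cingulin join to the cytoskeleton.

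The gene counts of the libraries ran from 21158750 to 26111656. The first APX2009 library stood apart from the other treated libraries: it had a count for 25015 genes against 21845 to 22446 in the other 5 libraries, and ERCC spike-in transcripts took 0.315% of its counts against 0.734% to 0.752% in the other treated and 0.480% to 0.564% in the untreated libraries. Values without it are therefore given beside the main counts and beside some of the changes that it moves. For all 34 tested genes of the list they are drawn as grey diamonds in the plot of log2 changes by class. A change printed without such a value is not shown to be unmoved by that library. Of the defining epithelial markers, KRT8, KRT18, KRT19 and KRT7 were abundant, and the summed level of 8 columnar keratin and epithelial markers was 26272 to 26950 CPM (counts scaled to an equal library total) in untreated and 14261 to 17884 CPM in treated cells. Most of that sum was KRT19, at 18555 ± 382 CPM untreated and 11303 ± 1400 CPM treated (SD, n = 3). The other 4 markers of the list were low. The intestinal marker KRT20 was near 0, at no more than 0.356 CPM in any library. VIL1 was at no more than 0.400 CPM and CDHR5 at no more than 1.47 CPM in any library. TSPAN8 was at 4.47 ± 0.742 CPM untreated and 2.16 ± 0.243 CPM treated. Markers of other cell types were low: fibroblast markers summed to 8.35 to 12.7 CPM untreated and 9.11 to 19.4 CPM treated, most of it COL1A1, with THY1 at 0, and leukocyte markers to 4.78 to 5.34 and 4.08 to 4.76 CPM with CD3E and CD3D at 0. The first APX2009 library alone held counts of COL1A2 (26), COL3A1 (48) and DCN (42), which were at 0 in the other 5 libraries, and it held 52 counts of VIM and 56 of SPARC, each at no more than 4 in any other library. Squamous markers summed to 68.5 to 74.2 CPM untreated and 17.5 to 22.0 CPM treated, with DSG3 at 0. Most of this was KRT13, at 59.4 ± 1.64 CPM untreated and 12.8 ± 2.06 CPM treated (SD, n = 3). IVL and SPRR3 were lower in level and also fell, and KRT5, KRT14, KRT4 and TP63 were at no more than 0.536 CPM in any library. Endothelial markers summed to 60.1 to 62.1 and 34.9 to 41.9 CPM, almost all from EGFL7. The part of these marker differences in the results below was not tested, and in such bulk RNA fewer cells of a type and less RNA per cell cannot be told apart.

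Most of the junction genes that changed fell, with falls in all 4 classes, and the 3 that rose encode the tight junction membrane proteins CLDN12, OCLN and CLDN1. LSR, also a tight junction membrane protein, fell most. Of the 34 tested genes, 16 fell and 3 rose (edgeR adjusted p under 0.05), against 17.4% of all tested genes lower and 17.2% higher (34.7% in either direction). The 34 had a median log2 change of -0.11, against 0.02 over everything tested. Passing the threshold with a log2 change of at least 0.5 in either direction held for 5 of the 34, all lower, and for 15.8% of tested genes. For 22 of the 34 every treated value lay outside the untreated range with no overlap of the groups, against 49.4% of all tested genes. Without the first APX2009 library, 16 were lower and 6 higher of 35 tested (CLDN18 among the 6, which passed the filter there only through the treated libraries), against 19.1% and 18.9% of all genes (38.1% in either direction), and all 19 changed genes kept their call and direction.

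By class, 5 of 8 tested adherens junction genes fell and 0 rose, with a median log2 change of -0.27. In desmosomes 7 of 9 fell and 0 rose, with a median of -0.29, and all 9 log2 changes were below 0. Of 12 tested tight junction genes 3 fell and 3 rose, with a median of 0.06. Of the other 5 genes, ESRP2 alone fell, and the median was -0.03. Without the first APX2009 library the medians were -0.25, -0.25, 0.07 and -0.01, and the counts were the same but for 6 rises in tight junctions. CLDN18 is among these 6, and it makes the tested tight junction genes 13 there. The tight junction medians of 0.06 and 0.07 are thus not over the same genes. The tight junction rises numbered 0 without untreated replicate 3 and 1, CLDN12, without APX2009 replicate 2. Without untreated replicate 2, CLDN12, OCLN and CLDN1 all lost their calls. The 1 rise counted there was CLDN18 (log2 change 3.94, edgeR adjusted p = 0.0373), which is near 0 and was left out of the reported fit. With all 6 libraries, the adherens, desmosome and remaining genes still gave 0 rises at an unadjusted p under 0.05, in edgeR as in DESeq2. Of all 14773 tested genes, 3344 were higher at that threshold in edgeR. Without the first APX2009 library, 1 adherens junction gene was higher at that threshold in edgeR. The difference between the classes was not tested, since genes are not replicates. JUP belongs to 2 kinds of junction, and counting it with adherens junctions gave 6 of 9 lower there and 6 of 8 lower in desmosomes.

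**Figure D1:**
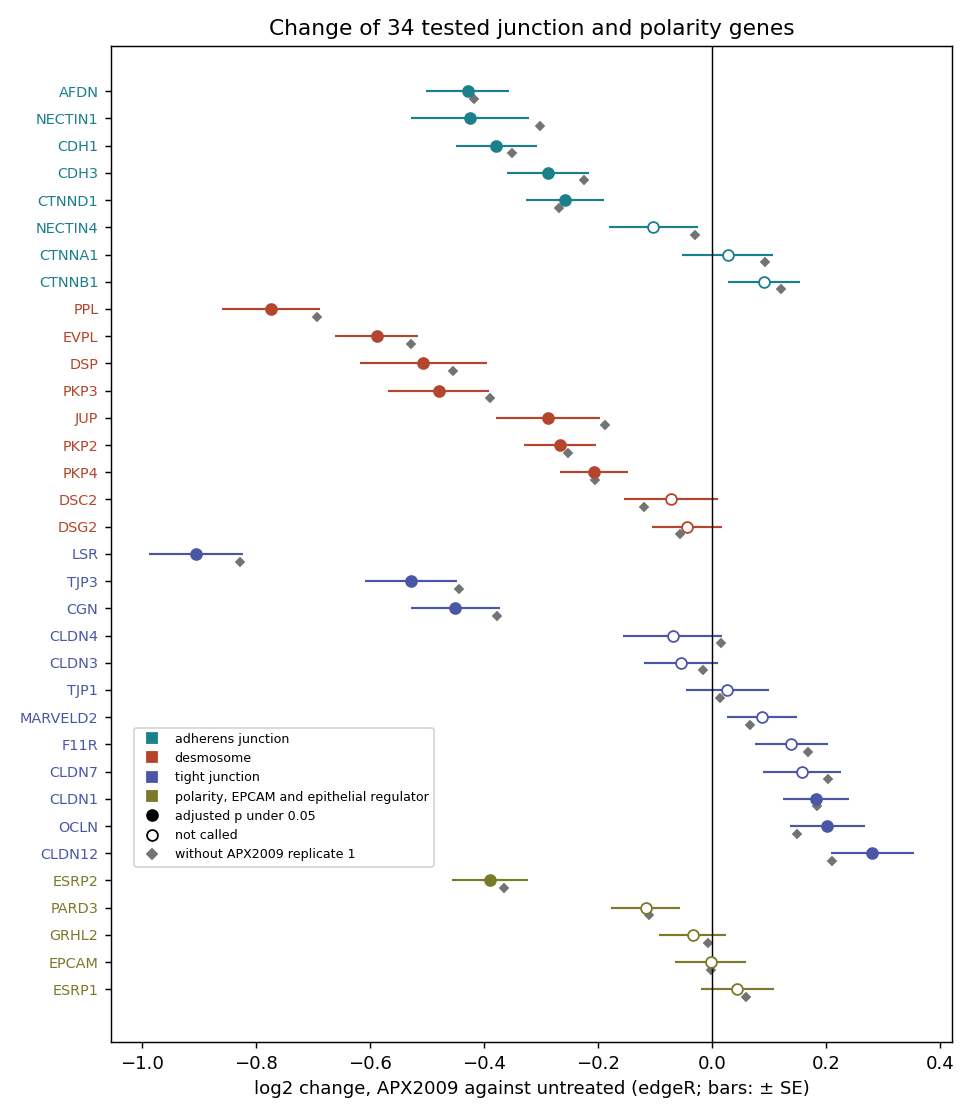
Log2 change (x axis) of the 34 tested genes, coloured by class, with bars of ± 1 SE from edgeR, filled where the adjusted p was under 0.05, and grey diamonds for the fit without the first APX2009 library. The desmosome genes all lie left of 0, LSR lies farthest left at -0.91, and the 3 filled points to the right are CLDN12, OCLN and CLDN1.

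**Figure D2:**
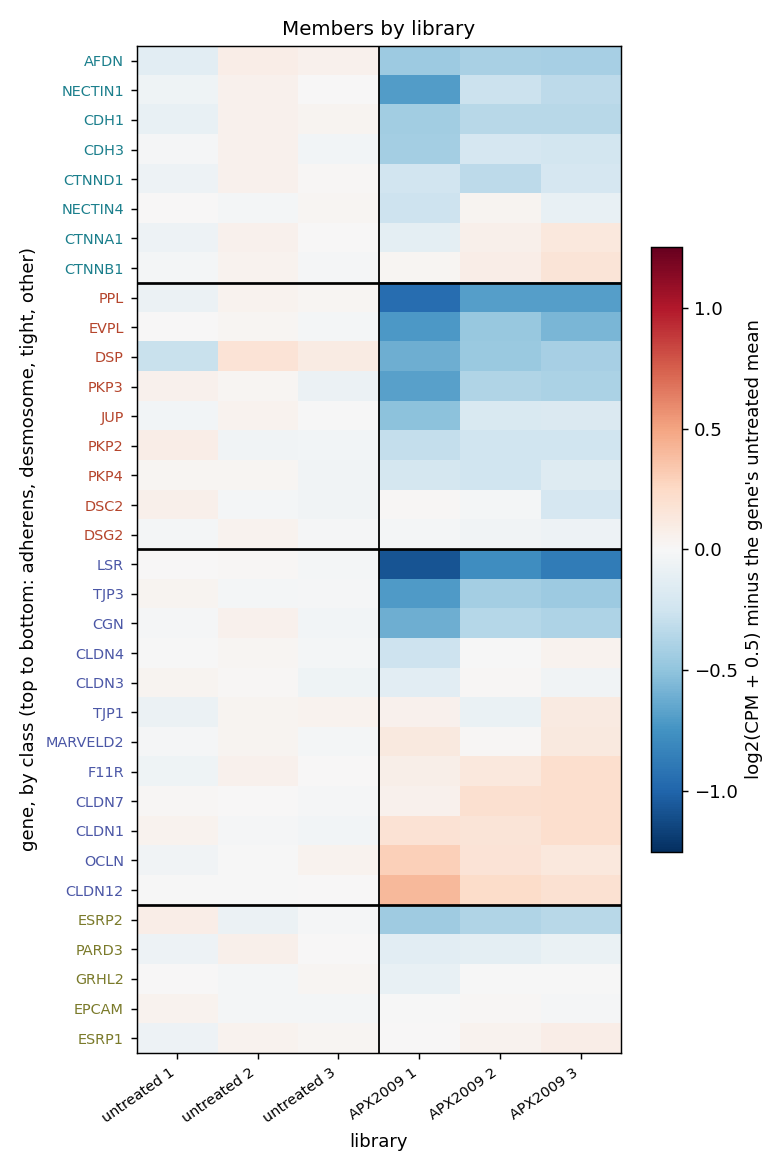
Each gene's log2(CPM + 0.5) in each of the 6 libraries minus its mean over the untreated libraries, with blue for lower and red for higher and black lines between classes. The first APX2009 library is the lowest treated library in 14 of the 16 genes that fell, and the other 2 treated libraries show the same direction in the genes that changed.

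Among adherens junction genes the classical cadherins fell. CDH1 encodes E-cadherin, the main adhesion receptor of epithelia (ENSG00000039068, chromosome 16, 68737225 to 68835548, GRCh38). It measured 563, 626 and 618 CPM in untreated libraries and 444, 472 and 474 CPM in treated ones. Every treated library was below every untreated one, a log2 change of -0.38 ± 0.07 (SE; adjusted p = 0.0024 in edgeR). CDH3, which encodes P-cadherin, fell by 0.29 on the log2 scale. CDH3 lies beside CDH1 on chromosome 16, and the share of CDH1 in the summed level per length of the classical cadherins and CDH17 was 83.6% ± 0.718 untreated and 82.7% ± 0.638 treated (SD, n = 3). The intestinal cadherin CDH17 had 0 counts in 5 libraries and was not tested.

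Of the catenins counted here, CTNND1 alone passed the test. CTNND1, the p120 catenin that keeps cadherins at the membrane, fell by 0.26 on the log2 scale. CTNNB1, which encodes beta-catenin, the cadherin partner that also acts in Wnt signalling (ENSG00000168036, chromosome 3, 41194741 to 41260096), measured 158, 166 and 159 CPM untreated and 164, 171 and 180 CPM treated. These ranges overlapped, and the log2 change of 0.09 ± 0.06 (SE) did not pass the test (edgeR adjusted p = 0.29). CTNNA1, the alpha-catenin that meets actin, had a log2 change of 0.03 and also did not pass.

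In the nectin system AFDN and NECTIN1 fell. AFDN encodes afadin, the actin-binding partner of nectins, and went from 282, 327 and 320 CPM to 226, 233 and 231 CPM, with no overlap and a log2 change of -0.43 ± 0.07 (SE; adjusted p = 0.0014 in edgeR). NECTIN1 fell by 0.42 on the log2 scale, and by 0.30 without the first APX2009 library. NECTIN4, also a nectin and higher per length, had a log2 change of -0.10 that did not pass the test. NECTIN1 made up 33.2% ± 1.12 of the summed level per length of NECTIN1 and NECTIN4 in untreated cells and 28.3% ± 1.47 in treated cells (SD, n = 3). CDH3 was called in all leave-one-out fits but that without untreated replicate 2 (adjusted p = 0.0539), and CTNND1 lost its call without untreated replicate 2, untreated replicate 3 or APX2009 replicate 2 (highest adjusted p = 0.0907).

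The desmosome genes with the greatest falls were the plakins, the large proteins that tie junctions to intermediate filaments. PPL, which encodes periplakin (ENSG00000118898, chromosome 16, 4882507 to 4960741), measured 817, 891 and 879 CPM untreated and 444, 533 and 536 CPM treated. The groups were far apart, a 1.71-fold lower level with a log2 change of -0.77 ± 0.09 (SE; adjusted p = 0.000111 in edgeR). EVPL encodes envoplakin, the partner of periplakin (ENSG00000167880, chromosome 17, 76004502 to 76027452). Its level was 160, 163 and 157 CPM untreated and 97.3, 115 and 107 CPM treated, a log2 change of -0.59 ± 0.07 (SE; adjusted p = 0.000201 in edgeR). DSP, which encodes desmoplakin, the obligate plakin of desmosomes (ENSG00000096696, chromosome 6, 7541575 to 7586717), measured 259, 354 and 338 CPM untreated and 206, 228 and 236 CPM treated. Untreated replicate 1 lay well below the other untreated libraries but above all treated ones, and the log2 change was -0.51 ± 0.11 (SE; adjusted p = 0.00575 in edgeR).

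The armadillo proteins of the desmosome also fell. PKP3, a plakophilin that clusters desmosomal cadherins, fell by 0.48 on the log2 scale, PKP2 by 0.27 and PKP4, a relative also found at adherens junctions, by 0.21. JUP encodes plakoglobin, the catenin shared by desmosomes and adherens junctions, and had by far the highest level of the 36 genes. It went from 6556, 6963 and 6689 CPM to 4706, 5907 and 5941 CPM, without overlap, a log2 change of -0.29 ± 0.09 (SE; adjusted p = 0.0328 in edgeR). Without the first APX2009 library this change was -0.19, and the call was lost without any of the untreated libraries (highest adjusted p = 0.124). PKP4 lost its call without any of the untreated libraries or APX2009 replicate 2 (highest adjusted p = 0.0981).

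The desmosomal cadherins of the list did not pass the test. DSG2, the desmoglein of simple epithelia, had a log2 change of -0.04, and DSC2, a desmocollin, one of -0.07. Their summed level per length was 52.4 ± 1.2 CPM per kilobase untreated and 50.8 ± 0.802 treated (SD, n = 3), of which DSG2 gave 96.0% and 96.1%. Within the list, the genes of the cytoplasmic plaque thus fell in 7 of 7 cases. Those of the desmosomal cadherins fell in 0 of 2 (0 of 2 also at an unadjusted p under 0.05). Outside the list, the desmosomal cadherin DSC3 fell by 0.27 on the log2 scale and DSG1 did not pass, so this split holds for the listed genes only.

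Among tight junction genes LSR fell most of all 36. It encodes angulin-1, which recruits tricellulin to the corners where cells meet in threes (ENSG00000105699, chromosome 19, 35248330 to 35267964). Its level was 445, 449 and 438 CPM untreated and 211, 258 and 243 CPM treated. The untreated libraries were close together and the treated ones all far lower, a 1.87-fold lower level with a log2 change of -0.91 ± 0.08 (SE; adjusted p = 2.73e-05 in edgeR). MARVELD2, which encodes tricellulin itself, had a log2 change of 0.09 that did not pass.

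Of the 3 tight junction plaque genes TJP3 and CGN fell and TJP1 did not pass. TJP3, which encodes ZO-3 (ENSG00000105289, chromosome 19, 3708109 to 3750813), measured 92.9, 89.4 and 90.1 CPM untreated and 55.3, 67.6 and 66.2 CPM treated, a log2 change of -0.53 ± 0.08 (SE; adjusted p = 0.000721 in edgeR). CGN, which encodes cingulin, a link from ZO proteins to actin and myosin, fell by 0.45 on the log2 scale. TJP1, which encodes ZO-1, the scaffold that most tight junctions need (ENSG00000104067, chromosome 15, 29699367 to 29968865), measured 297, 321 and 324 CPM untreated and 325, 296 and 339 CPM treated. The values of TJP1 overlapped, with a log2 change of 0.03 ± 0.07 (SE; adjusted p = 0.802 in edgeR).

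The rises were small and were found in membrane proteins of the tight junction. CLDN12, a claudin that lacks the usual binding motif for ZO proteins (ENSG00000157224, chromosome 7, 90383721 to 90513402), went from 217, 218 and 219 CPM to 290, 256 and 250 CPM, a log2 change of 0.28 ± 0.07 (SE; adjusted p = 0.0129 in edgeR). OCLN, which encodes occludin (ENSG00000197822, chromosome 5, 69492292 to 69558104), went from 98.1, 101 and 104 CPM to 124, 114 and 111 CPM, a log2 change of 0.20 ± 0.07 (SE; adjusted p = 0.0373 in edgeR). CLDN1, a sealing claudin, rose by a log2 change of 0.18, from 73.4, 70.3 and 69.5 CPM to 80.3, 79.6 and 82.0 CPM. No treated library overlapped an untreated one in any of these 3 genes. The calls were lost when CLDN12 was fitted without untreated replicate 2 or 3 (highest adjusted p = 0.0614), OCLN without any untreated library or APX2009 replicate 2 (0.121) and CLDN1 without untreated replicate 2 or 3 or APX2009 replicate 2 or 3 (0.141). Exons of CLDN12 overlap those of GTPBP10 and CDK14 on the same strand, so its counts are less certain.

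These directions are relative to the other transcripts of the same libraries. Scaled to the ERCC spike-ins without the first APX2009 library, tested genes had a median log2 change of -0.48, and CLDN12, OCLN and CLDN1 turned to -0.28, -0.34 and -0.31. Relative to that median they were at 0.20, 0.14 and 0.18. With all 6 libraries and ERCC scaling, the median was 0.08 and 0 of the 34 genes were called by edgeR (0 also at an unadjusted p under 0.05), with log2 changes of -0.89 for LSR, -0.76 for PPL, 0.40 for CLDN12 and 0.31 for OCLN.

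Among the other claudins, CLDN7 had a log2 change of 0.16 without overlap between groups and did not pass (edgeR adjusted p = 0.0994), but did at 0.20 without the first APX2009 library (adjusted p = 0.00365). F11R, which encodes the adhesion molecule JAM-A, was likewise at 0.14 with all libraries and passed at 0.17 without that library (adjusted p = 0.0248). CLDN3 and CLDN4, claudins common in adenocarcinomas, were at -0.05 and -0.07 and did not pass. CLDN18, a claudin of gastric epithelium, was near 0, at no more than 0.622 CPM in any library, and the filter left it out of the reported fit. Its counts were 1, 3 and 0 in untreated and 5, 14 and 10 in treated libraries. The summed level per length of the claudins was 549 ± 7.91 CPM per kilobase untreated and 563 ± 37.7 treated (SD, n = 3). CLDN4 gave 45.1% ± 0.435 of it untreated and 41.8% ± 1.91 treated, CLDN7 30.4% ± 0.199 and 33.1% ± 0.267, and CLDN12 5.90% ± 0.113 and 7.03% ± 1.08.

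**Figure D3:**
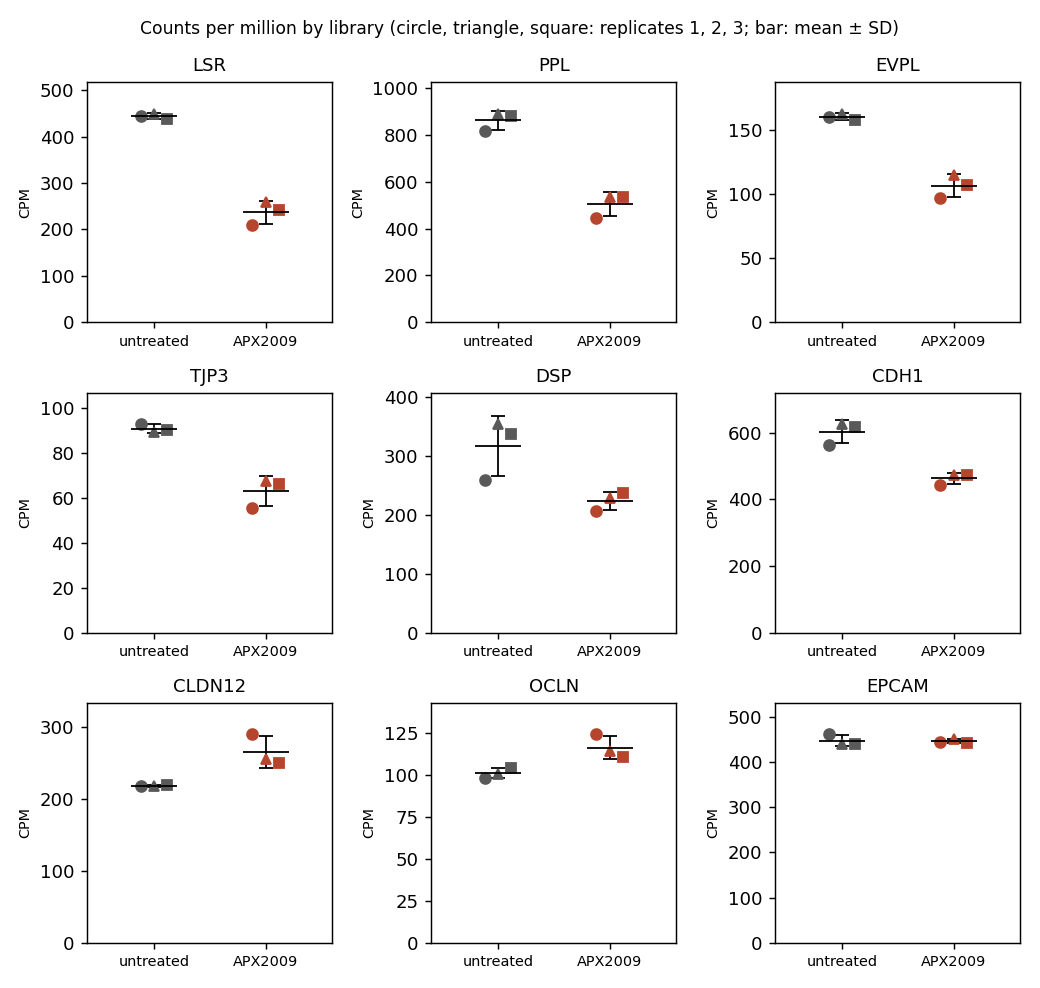
CPM on a linear axis from 0 for 9 genes in the 3 untreated (grey) and 3 APX2009 (red) libraries, with a bar at the mean ± SD and 1 symbol shape per replicate number. LSR, PPL, EVPL, TJP3, DSP and CDH1 are lower in every treated library, CLDN12 and OCLN are higher, and EPCAM lies between 439 and 461 CPM in all 6 libraries.

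EPCAM, an epithelial adhesion protein that binds claudin-7 (ENSG00000119888, chromosome 2, 47345158 to 47387601), did not pass the test. It measured 461, 440 and 439 CPM untreated and 445, 452 and 442 CPM treated, a log2 change of 0.00 ± 0.06 (SE; adjusted p = 0.98 in edgeR). PARD3, the scaffold of the PAR polarity complex, was at -0.12 without overlap between groups but did not pass. GRHL2, a transcription factor that holds many junction genes active, was at -0.03 and did not pass.

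Of the 2 epithelial splicing regulators ESRP2 fell. It went from 136, 122 and 127 CPM to 94.4, 99.0 and 101 CPM, a log2 change of -0.39 ± 0.07 (SE; adjusted p = 0.00136 in edgeR), while ESRP1 was at 0.04 and did not pass. ESRP1 had the higher level per length and made up 66.6% ± 2.19 of the sum of both untreated and 72.9% ± 0.225 treated (SD, n = 3).

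To set related genes against each other directly, 10 ratios of level per length between related genes were compared library by library, with pairs chosen after the values were seen. In 7 of the 10 the treated and untreated ratios did not overlap. The log2 ratio of TJP3 to TJP1 was 0.56 lower in treated cells (difference -0.56), that of ESRP2 to ESRP1 differed by -0.43, JUP to CTNNB1 by -0.39, NECTIN1 to NECTIN4 by -0.33, PPL to DSP by -0.28, PKP3 to PKP2 by -0.22 and CLDN12 to CLDN4 by 0.35. Each has a two-sided exact permutation p of 0.1, the smallest that 3 against 3 libraries allow, and 0.143 when adjusted over the 10. The ratios of DSC2 to DSG2, CLDN4 to CLDN3 and CDH3 to CDH1 overlapped between groups. In each of the 7 pairs without overlap, the gene that was lower against its partner had the higher GC content in its longest annotated transcript. TJP3 was at 63.2% and TJP1 at 44.8%, and NECTIN1 at 60.4% and NECTIN4 at 55.5%. The part of GC content in these ratio differences was not tested.

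Levels can be set against each other only per length, here that of all annotated exons of a gene merged. This is not the length of a single transcript, and the order and shares of levels depend on it. In untreated cells JUP stood at 1363 ± 42.0 CPM per kilobase (SD, n = 3), which is rank 11 of 14726 tested genes with a known length. CLDN4 followed at 247 ± 4.47, EPCAM at 177 ± 4.93, CLDN7 at 167 ± 1.77, LSR at 152 ± 2.06, PPL at 112 ± 5.15 and CDH1 at 97.5 ± 5.57. CLDN3, PKP3 and CTNND1 came next between 82.4 and 80.2 and did not differ beyond their spread. The lowest tested gene was DSC2 at 2.11 ± 0.0893. In treated cells JUP stayed first at 1117 ± 142 and CLDN4 second at 236 ± 26.1, CLDN7 at 186 ± 11 came before EPCAM at 177 ± 1.92, and LSR at 81.3 ± 8.37 was followed by CLDN3 at 79.3 ± 4.10 and CDH1 at 75.0 ± 2.71. In each of these 2 sets the intervals of mean ± SD overlapped.

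**Figure D4:**
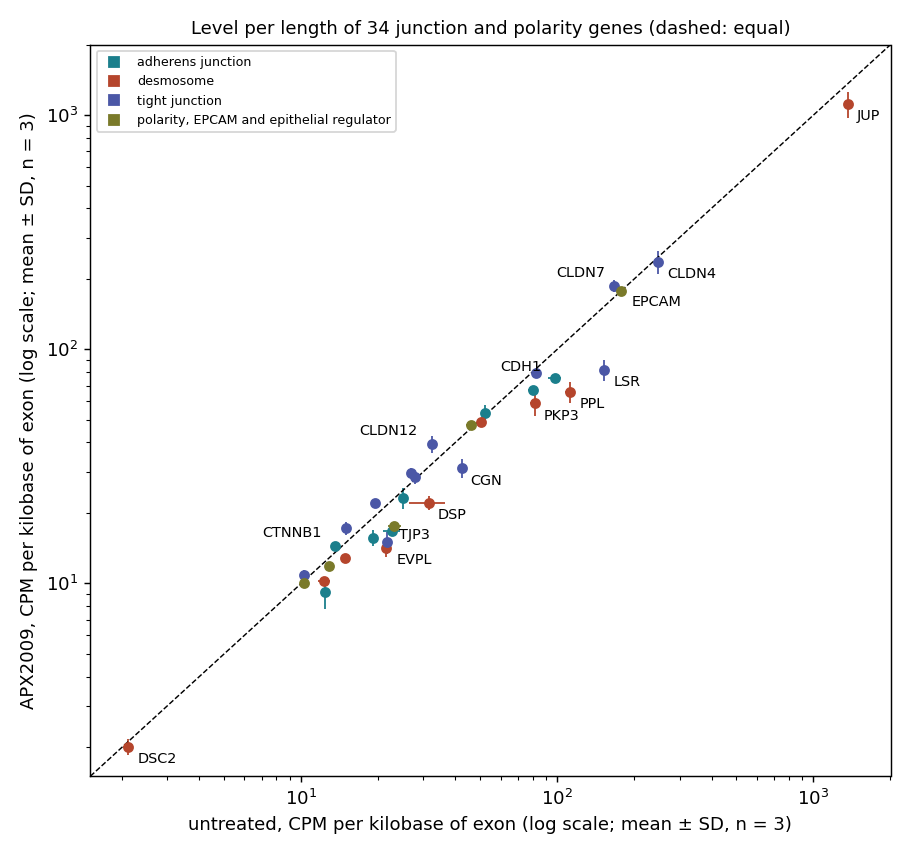
Level per length (CPM per kilobase of exon, mean ± SD, n = 3) of the 34 tested genes in untreated (x) and APX2009 (y) cells on log axes, with a dashed line of equality. The order from DSC2 to JUP is broadly kept, and LSR and PPL lie farthest below the line.

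Base composition moved with the direction of change. The GC content of the longest annotated transcript had a median of 57.8% in the 16 genes that fell (46.2% to 66.7%), 39.9% in the 3 that rose (38.1% to 41.5%) and 49.1% over all genes tested. Across 14721 genes, which are not independent replicates, the Spearman correlation of the log2 change with GC content was -0.20. Without the first APX2009 library it was -0.11. For the difference between the first and the other APX2009 libraries, the correlation with GC content was -0.42. With an offset for GC content and length, 15 genes were lower and 2 higher. LSR was then at -0.76 and PPL at -0.64, and NECTIN1, EVPL and PKP3 kept their calls at -0.28, -0.38 and -0.30. JUP lost its call at -0.16 (edgeR adjusted p = 0.0717), as did OCLN at 0.13 (adjusted p = 0.0507) and CLDN1 at 0.11 (adjusted p = 0.145), while CLDN7 gained one at 0.24 (adjusted p = 0.00435).

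**Figure D5:**
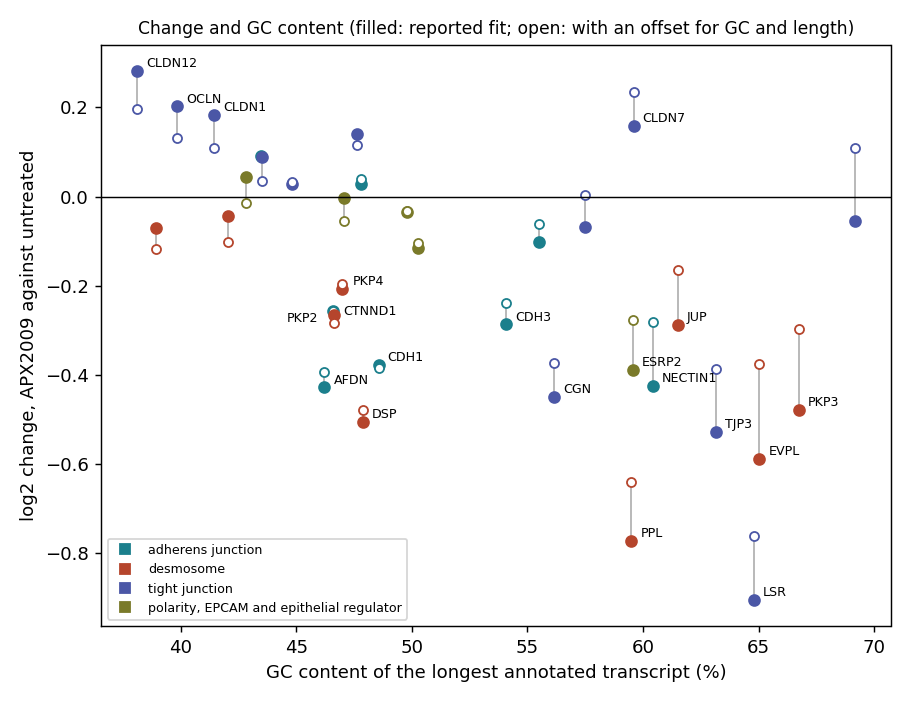
Log2 change of the 34 genes (y axis) against the GC content of the longest transcript (x axis, %), filled for the reported fit and open for the fit with an offset for GC content and length, joined by a line. The 3 genes that rose lie below 42% GC. The offset moves the GC-rich genes EVPL and PKP3 toward 0 without reaching it, and moves CLDN7, also GC-rich, farther above 0.

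Related genes outside the 36 were read from wider lists. Of 12 tested further adherens junction genes 6 fell and 1 rose: NECTIN2 fell by 0.53 on the log2 scale, CTNNAL1, a relative of alpha-catenin, by 0.47 and PLEKHA7 by 0.40. Of 7 further desmosome genes 3 fell, with the plakin PLEC at -0.99, the desmosomal cadherin DSC3 at -0.27 and PERP at -0.23. The plakin DST rose by 0.55. Of 16 further tight junction genes 3 rose and 3 fell, with CLDND1 at 0.77, CLDN23 at 0.43, MAGI1 at -0.40 and SYMPK at -0.36. Of 19 polarity genes 4 fell and 2 rose. LLGL2 and SCRIB, of the basolateral Scribble module, were at -0.58 and -0.43. Of the PAR genes, PRKCZ was at 0.70 and PARD6B at 0.54, and PARD3B, a low gene named after its value was seen, fell by 1.16. Median log2 changes of these lists were -0.25, -0.27, -0.00 and -0.00. The shares called are read beside the 34.7% of all tested genes called in either direction, and are 58.3% and 57.1% for the adherens and desmosome lists and 37.5% and 31.6% for the tight junction and polarity lists, the last 2 close to it. Without the first APX2009 library the further adherens genes had 5 falls and 1 rise, the polarity genes 5 and 3, and the other 2 lists the same counts.

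Gap junction genes, whose connexins join the cytoplasm of neighbouring cells, fell in 3 of 5 tested cases, and 0 rose. Of 14 other epithelial regulators 4 fell, among them EHF by 0.44, OVOL1 by 0.44 and GRHL1 by 0.39, and 0 rose, while 5 fell and 2 rose without the first APX2009 library. Of 8 tested genes of mesenchymal transition 3 fell, S100A4 by 1.10, FN1 by 0.42 and ITGA5 by 0.33. SNAI1, a repressor that binds E-boxes in the CDH1 promoter, rose by a log2 change of 1.04, from 1.19 ± 0.132 to 2.47 ± 0.456 CPM (SD, n = 3; edgeR adjusted p = 0.00504), a low level in both groups. The shares called in either direction were 60% for gap junction genes, 28.6% for the regulators and 50% for the mesenchymal genes. Over all tested genes the share was 34.7%, so that of the regulators lay below it.

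Because junction genes are known targets of E-box repressors and of GRHL2, promoter letters are shown for the changed genes whose window reaches beyond annotated exons. RefSeq windows of 250 bases before to 50 after a start (GRCh38.p14) were found for 21 of the 36 genes, 34 windows in all, some of them overlapping. The E-box letters CACCTG, on either strand, occurred in 13 of 34 windows (38.2%) and in 19.3% of 14821 windows of tested genes. The GC box GGGCGG occurred in 73.5% and 65.9%, TGANTCA of AP-1 in 2.94% and 5.44%, and the Grainyhead site AACCGGTT in 0 of 34 and 0.182%. Stretches of 120 bases follow, 5′ to 3′, with the E-box letters in capitals where present. Those of AFDN, CGN and PKP4 belong to genes that fell and that of OCLN to one that rose. All 4 are on the plus strand. They lie at chr6:167827515-167827634, chr1:151511267-151511386, chr2:158456832-158456951 and chr5:69492670-69492789 in this order. The stretch of PKP4 lies before the annotated gene, and the other 3 lie within the span of the gene but in no annotated exon.
AFDN: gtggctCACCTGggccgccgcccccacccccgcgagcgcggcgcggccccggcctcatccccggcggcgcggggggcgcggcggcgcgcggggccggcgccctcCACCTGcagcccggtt
CGN: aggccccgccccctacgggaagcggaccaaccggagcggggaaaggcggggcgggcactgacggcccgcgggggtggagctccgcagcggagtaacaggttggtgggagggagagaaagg
PKP4: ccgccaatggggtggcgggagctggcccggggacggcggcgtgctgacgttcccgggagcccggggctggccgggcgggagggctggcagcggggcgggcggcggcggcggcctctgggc
OCLN: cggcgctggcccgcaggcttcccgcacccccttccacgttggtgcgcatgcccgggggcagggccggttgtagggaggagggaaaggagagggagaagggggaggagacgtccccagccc
The AFDN stretch holds the E-box letters at 2 places and the other stretches hold none. Among windows of genes that fell the letters were in 4 of 10, and among those of genes that rose in 2 of 4, which are 2 overlapping windows of OCLN. A match describes these letters and is not a site of binding.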

How the data were processed

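The authors deposited raw, unnormalized counts by Ensembl gene, per the file headers. The submitters' processing notes name GRCh38 as the build, with Trimmomatic 0.36, featureCounts, Subread 1.5.2 and STAR 2.5.2b. The strand setting, tool order and annotation release are not given in those sources, so a gene's reads and those of an overlapping gene may be mixed: exons of CDH1, CDH3, CTNNA1, NECTIN1, DSG2, ESRP2, GRHL2 and PKP4 overlap antisense or opposite-strand genes, and those of CLDN7, CLDN12, F11R and CTNND1 overlap same-strand genes, as do exons of some genes of the wider lists. Symbols, exon lengths and GC content came from GENCODE 29, which matched 57447 of 58051 IDs.

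The 92 ERCC rows entered neither library sizes nor tests. Genes passing filterByExpr were scaled by TMM and tested with the quasi-likelihood test of edgeR 4.0.16 (R 4.3.3) on treatment alone, with Benjamini-Hochberg adjustment over all 14773 tested genes and a threshold of 0.05. "Rose" and "fell" mean past that threshold, and SE was derived from the F statistic. CPM are counts scaled to an equal TMM-adjusted library total. The step was also run on simulated counts. Libraries of 1 group never agreed within sampling noise. Members and lists were chosen with earlier results of these data known, and p-values set the treatment difference against the spread between the cultures. Full values are given for called members with an absolute log2 change of at least 0.5 and for CDH1, CTNNB1, EPCAM, DSP, TJP1 and OCLN. Those of AFDN, JUP, CLDN1, CLDN12, ESRP2, CLDN18 and the marker genes were added after they were seen. Of each wider list up to 4 called genes with the smallest p are named, and some genes that this rule takes up are not reported here. Alternatives used limma 3.58.1 (voom) and DESeq2 1.42.0, other scalings and filters, leaving out each library, a replicate block, stricter thresholds and, added after seeing the data, an offset for GC content and length and ERCC scaling without the first APX2009 library. Figures were drawn with matplotlib 3.10.9.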

Additional observations from a re-analysis of the deposited data

How the results depend on the processing

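Over 16 settings other than ERCC scaling and stricter thresholds, 12 of the 19 changed genes were called in every one, and all 12 fell: AFDN, CDH1, CGN, DSP, ESRP2, EVPL, LSR, NECTIN1, PKP2, PKP3, PPL and TJP3. RLE, upper-quartile and total-count scaling, a 1 CPM filter and limma voom kept all 19 calls. DESeq2 lost CLDN1 alone (adjusted p = 0.0641), and no filter lost JUP, CLDN1 and OCLN. Over all 20 settings, changed genes turned sign 3 times, and all 3 were under ERCC scaling without APX2009 replicate 1.

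ERCC scaling of all 6 libraries called 136 genes (129 higher, 7 lower) and 0 of the 34 members, in every class (0 also at an unadjusted p under 0.05). ERCC scaling without APX2009 replicate 1 called 9689 genes (459 higher, 9230 lower) and 33 members, of which 32 were lower and 1, CLDN18, higher. It called lower all 8 adherens, all 9 desmosome and all 5 remaining genes, and in tight junctions called 11, with 10 lower and 1 higher. Log2 changes above 0 in the reported fit turned to -0.40 for CTNNA1, -0.37 for CTNNB1, -0.31 for CLDN1, -0.28 for CLDN12, -0.29 for CLDN7, -0.34 for OCLN, -0.42 for MARVELD2, -0.32 for F11R, -0.48 for TJP1, -0.43 for ESRP1, -0.053 for CLDN23, -0.16 for MAGI3 and -0.027 for PARD6B. The ERCC share of APX2009 replicate 1 lies below that of every other library, which the 2 ERCC settings treat differently, and which of them is nearer to the RNA content per cell was not tested.

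At an adjusted p under 0.01, 3057 genes were called (1470 higher, 1587 lower) and 12 members, with 0 higher; 3 adherens genes were called, all lower, and 3 tight junction genes, with 0 higher. Against a 1.2-fold change (glmTreat of edgeR), 2222 genes were called (1092 higher, 1130 lower) and 7 members, all lower with 0 higher: 1 adherens, 3 desmosome, 3 tight junction and 0 of the remaining genes. Fewer calls follow from these thresholds by construction. Without PKP4, PPL and EVPL, 4 of 6 desmosome genes were called, all lower.

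Leaving out 1 library at a time, called members ran from 13 to 22, lower ones from 12 to 16 and higher ones from 0 to 6. In adherens junctions 3 to 5 were called and 3 to 5 were lower. In tight junctions 3 to 9 were called and 0 to 6 were higher. CLDN18 is counted among the higher genes without APX2009 replicate 1 and without untreated replicate 2. The lower end came without untreated replicate 3 for the higher genes and without untreated replicate 2 for the adherens genes, and the upper end without APX2009 replicate 1.

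Same-numbered libraries correlated in their deviations at 0.15, 0.09 and 0.03, so the numbers are not shown to pair the cultures. With the replicate block 5501 genes and 17 members were called, and 1 member was higher, CLDN12, which is the 1 higher tight junction gene; OCLN and CLDN1 were lost. With 3 libraries a group, a simulated 1.5-fold change was not always recovered, so a member that did not pass is not shown to be level.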

Other observations

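The gene JUP had the highest level of the junction genes, and several of its neighbours on chromosome 17 were also high in untreated cells. KRT19 was rank 1 of 14726 tested genes per length at 7943 CPM per kilobase, EIF1 rank 17 at 1129, FKBP10 rank 56 at 399 and P3H4 rank 191 at 163, beside JUP at rank 11. Their changes with treatment differed: KRT19 had a log2 change of -0.72, FKBP10 of -0.47, P3H4 of -0.27 and EIF1 of 0.45 (edgeR adjusted p = 0.000185, 0.000473, 0.0237 and 0.00105). Between KRT19 and P3H4 also lie KRT16 (37.2 CPM per kilobase) and genes near 1 CPM per kilobase, KRT17 at 1.17 and HAP1 at 1.19, so the high levels are not shared by every gene of the stretch. These neighbours were chosen after their values were seen.

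The first APX2009 library was the lowest treated library in 14 of the 16 members that fell (87.5%) and in 59.2% of all genes that fell. It was the highest treated library in 2 of the 3 members that rose and in 43.8% of all genes that rose.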
